A study of Mus musculus with 4 samples.

Results

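Aminoacyl-tRNA synthetases are the enzymes that join each amino acid to its transfer RNA. The 36 synthetase genes described here were taken by symbol from the 23420 gene symbols counted, 20 for the enzymes of the cytosol and 16 for those of the mitochondrion, and all 36 were retained after the filter on low counts. They were compared in prefrontal cortex (PFC) of mice with *Ash1L* knockdown, *Ash1L* encoding a histone methyltransferase. In *Ash1L* shRNA samples, 5 of 20 cytosolic genes (*Cars*, *Yars*, *Eprs*, *Tars* and *Farsb*) were called higher by 1.22-fold to 1.48-fold and 0 were called lower. Of 16 mitochondrial genes, *Nars2* was called higher and *Vars2* lower. A gene was called when its unadjusted P in edgeR's quasi-likelihood test was under 0.05 and its fold change was at least 1.2 in either direction. By this criterion 8.61% of the 16232 genes tested were called higher and 8.28% lower. No synthetase reached an adjusted P under 0.05 (edgeR's quasi-likelihood test, adjusted by Benjamini-Hochberg, lowest adjusted P = 0.253), a level that 0.00616% of all genes tested reached. At unadjusted P under 0.05, 7 of the 36 passed, the same 7 that were called.

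A synthetase uses ATP to activate its amino acid and then transfers it to the matching tRNA, so the set of these enzymes supplies every amino acid that a ribosome builds into protein. The nucleus encodes one set for translation in the cytosol and another, with names ending in 2, for translation of the few proteins made inside mitochondria. *Gars* and *Kars* serve both compartments. Several cytosolic enzymes are held in a multi-synthetase complex, and a number of cytosolic synthetase genes are known targets of ATF4, a transcription factor of the amino acid and stress response. Mutations in both sets are known causes of neurological disease.

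RNA-seq was performed on bulk PFC tissue from C57BL6/J mice with AAV9 delivered to the medial PFC on both sides, 2 samples per group. Control samples received GFP AAV9 according to the sample labels, whereas the study's methods describe the control virus as carrying a scrambled shRNA. *Ash1L* shRNA samples received AAV9 in which a U6 promoter drives the hairpin alongside a GFP tag. The series description gives an age of 6 to 8 weeks, with 3 *Ash1L* shRNA and 2 control mice, while the methods give injection at 5 weeks and tissue of 3 mice pooled for each sample. Pieces of tissue with GFP fluorescence were lysed whole, so that infected and uninfected cells, neurons and glia were read together, and in such bulk tissue fewer cells of a type and less RNA per cell cannot be told apart. The labels call the samples of a group biological duplicates without tying them to single animals, and the P values measure only the spread between these samples, which may be technical.

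Depth was 14251190 counts for control 1 and 35764874 for control 2, with 27479339 for *Ash1L* shRNA sample 1 and 20106708 for sample 2. *Ash1l* itself (ENSMUSG00000028053, chr3:88950622-89079375, mm10) was at 245 and 290 CPM (read counts per 1e6 after TMM scaling) in the controls and 216 and 138 CPM in the *Ash1L* shRNA samples. Both knockdown samples were below both controls (log2 fold change -0.60 ± 0.22 SE, called lower, adjusted P = 0.275, edgeR's quasi-likelihood test). The median log2 fold change over all genes tested was -0.0027. Marker lists moved with the groups: 6 of 8 astrocyte, 4 of 8 excitatory neuron, 3 of 8 interneuron and 6 of 11 leukocyte markers were called lower, and 2 of 6 fibroblast markers were called higher. Summed astrocyte markers spanned 5513 to 5850 CPM in controls and 3287 to 4449 CPM in *Ash1L* shRNA samples, and summed excitatory neuron markers 2553 to 3037 CPM and 1975 to 2346 CPM. Of 8 microglial and 8 oligodendrocyte markers, 0 were called in either direction, and 1 of 5 oligodendrocyte precursor markers was called higher. Among all genes tested, 8.61% were called higher and 8.28% lower. Summed microglial markers were at 620 and 641 CPM in controls and at 736 and 317 CPM in *Ash1L* shRNA samples 1 and 2. Summed leukocyte markers spanned 143 to 183 CPM in controls and 64.2 to 147 CPM in *Ash1L* shRNA samples, and summed fibroblast markers 101 to 165 CPM and 172 to 182 CPM. The lowest marker level in any sample was 0.0482 CPM in the leukocyte list and 3.85 CPM in the fibroblast list, and the part of cell composition in the synthetase values was not tested.

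The promoters of 2 called genes, *Yars* and *Tars*, are shown because both hold the core of the element that ATF4 binds together with C/EBP proteins, for which the letters TGATGNAAN were searched on both strands. Each is 300 bases of RefSeq sequence on GRCm38.p6, from 250 bases before the annotated start to 50 after it, written 5′ to 3′ on the strand of the gene, with the element in capitals. The *Yars* window is chr4:129189653-129189952 on the plus strand and the *Tars* window chr15:11399609-11399908 on the minus strand.
Yars promoter: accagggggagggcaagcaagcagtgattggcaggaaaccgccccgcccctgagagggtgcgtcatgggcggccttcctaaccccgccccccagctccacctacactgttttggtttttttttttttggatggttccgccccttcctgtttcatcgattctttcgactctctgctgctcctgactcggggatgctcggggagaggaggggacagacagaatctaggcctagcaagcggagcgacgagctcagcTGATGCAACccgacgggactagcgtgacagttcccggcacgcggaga
Tars promoter: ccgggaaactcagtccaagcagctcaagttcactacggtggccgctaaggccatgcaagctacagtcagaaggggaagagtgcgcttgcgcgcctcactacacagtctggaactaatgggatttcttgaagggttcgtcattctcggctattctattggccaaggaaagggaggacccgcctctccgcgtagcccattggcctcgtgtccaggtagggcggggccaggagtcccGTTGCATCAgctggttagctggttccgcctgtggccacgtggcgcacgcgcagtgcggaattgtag
In *Yars* the element began 3 bases after the start in the forward orientation, and in *Tars* it began at position -16 from the start in the reverse orientation.

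The same letters occurred in 3 further cytosolic promoters, those of *Aars*, *Gars* and *Iars*, which were not called. The windows below, 1 for each gene, run 33 bases with the element in capitals, all in the reverse orientation, at chr8:111033838-111033870 for *Aars*, chr6:55037958-55037990 for *Gars* and chr13:49682124-49682156 for *Iars*, all on the plus strand. They are printed so that the uncalled genes can be read beside the called ones. The *Aars* promoter held the core at 2 places, of which 1 is shown.
Aars element: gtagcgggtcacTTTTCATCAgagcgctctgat
Gars element: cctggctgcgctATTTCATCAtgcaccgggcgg
Iars element: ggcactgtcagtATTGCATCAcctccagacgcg
Promoter windows were found for 12 of 20 cytosolic and 14 of 16 mitochondrial genes. The core was present in 5 of 12 cytosolic windows (41.7%) and 0 of 14 mitochondrial windows, against 4.5% of 27025 genes with a window. Among the called genes, *Eprs*, *Farsb*, *Nars2* and *Vars2* had windows without these letters, and *Cars* had no window in the table.

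Expression of the cytosolic genes can be read beside the presence of the core. Of the 5 genes with it, 2 were called higher, the groups did not overlap in 3, and the median log2 fold change was 0.16. Of the 7 with a window but no core, 2 were called higher, the groups did not overlap in 4, and the median was 0.13. For all genes tested, 8.61% were called higher and 26.5% had both knockdown samples above both controls. A match of letters is a description of the sequence, and no binding was measured here.

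Of the log2 fold changes of the cytosolic genes, 18 of 20 were above 0 and those of *Farsa* and *Qars* below 0, with a median of 0.15 and a range of -0.07 to 0.56, against the median of -0.0027 over all genes. Both *Ash1L* shRNA samples were above both controls in 11 of the 20, and in 0 of the 20 were both below. Over all genes tested, these shares were 26.5% and 26.8%. With 2 samples per group, the smallest P an exact permutation test can give for a single value is 0.33. Without control 1 the median was 0.0954 and 14 of 20 values were above 0. Summed over the 20 genes, cytosolic synthetase mRNA was at 1842 and 1970 CPM in controls and 2131 and 2170 CPM in *Ash1L* shRNA samples, a ratio of group means of 1.13. Relative to each gene's control mean, the median log2 deviation was -0.06 and 0.06 in controls 1 and 2 and 0.15 and 0.14 in the knockdown samples. Control 1, the shallowest library, was below control 2 for 15 of the 20 genes.

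**Figure D1:**
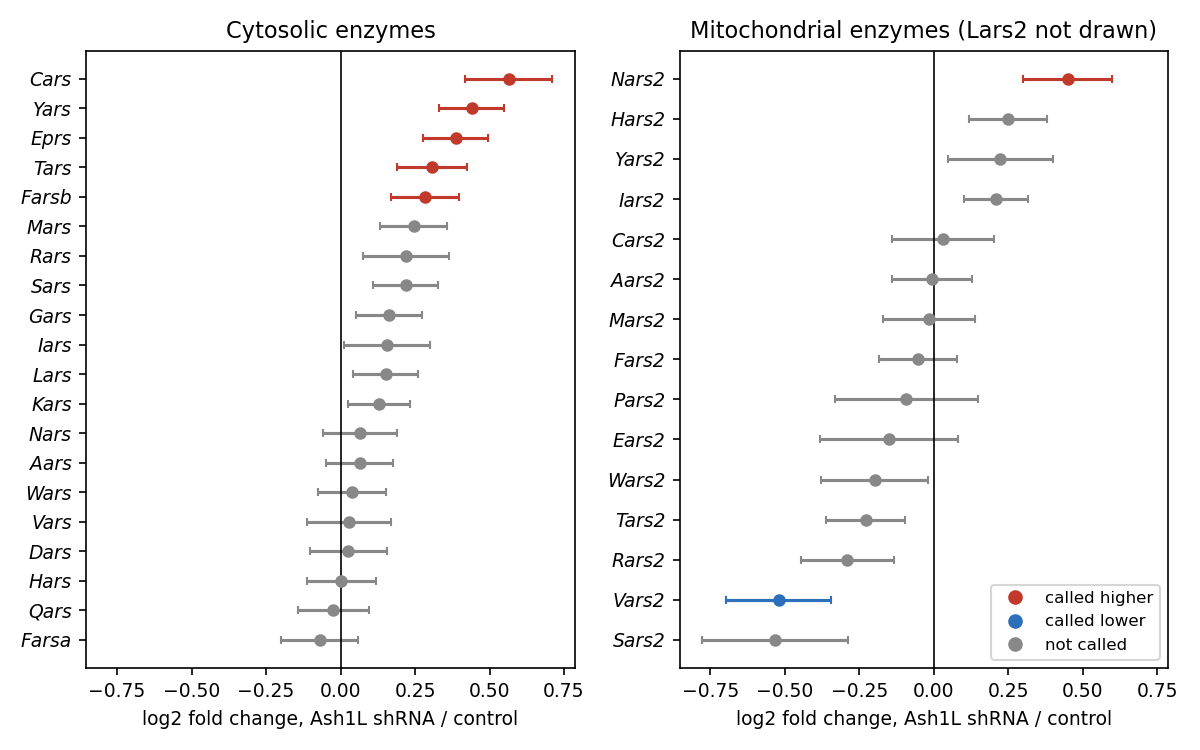
Log2 fold change (*Ash1L* shRNA over control, horizontal axis) of each cytosolic gene in the left panel and each mitochondrial gene except *Lars2* in the right panel, with bars of 1 SE from edgeR and 2 samples per group. Called genes are red when higher and blue when lower, and 18 of 20 cytosolic points lie right of 0 while mitochondrial points lie on both sides of it.

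The cytosolic gene with the largest fold change was *Cars*, which encodes the cysteinyl-tRNA synthetase (ENSMUSG00000010755, chr7:143557230-143600090). It was at 39.0 and 48.0 CPM in controls and 60.5 and 68.5 CPM in *Ash1L* shRNA samples. The groups did not overlap, and the log2 fold change was 0.56 ± 0.15 SE (adjusted P = 0.253, edgeR's quasi-likelihood test). The exons of *Cars* share 211 bases with a processed pseudogene on the opposite strand, and the strand setting of the counting is not given in the sources used here.

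*Yars*, for tyrosyl-tRNA synthetase (ENSMUSG00000028811, chr4:129189760-129219607), was at 89.7 and 95.1 CPM in controls and 127 and 123 CPM in knockdown samples. Each pair of replicates lay close together, and the gap between groups was larger than either (log2 fold change 0.44 ± 0.11 SE, adjusted P = 0.253, edgeR's quasi-likelihood test). *Eprs* (ENSMUSG00000026615, chr1:185363044-185428360) encodes a fused enzyme that charges both glutamate and proline and sits in the multi-synthetase complex. Its level was 185 and 173 CPM in controls and 230 and 238 CPM in knockdown samples, with no overlap (log2 fold change 0.39 ± 0.11 SE, adjusted P = 0.259, edgeR's quasi-likelihood test). No other annotated gene shares exonic bases with *Eprs*.

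*Tars*, the threonyl-tRNA synthetase gene (ENSMUSG00000022241, chr15:11382301-11399665), read 42.9 and 41.4 CPM in controls and 50.2 and 54.0 CPM in knockdown samples (log2 fold change 0.31 ± 0.12 SE, adjusted P = 0.278, edgeR's quasi-likelihood test). Phenylalanyl-tRNA synthetase is built from an alpha subunit encoded by *Farsa* and a beta subunit encoded by *Farsb*. *Farsb* (ENSMUSG00000026245, chr1:78417975-78488897) was at 64.1 and 61.5 CPM in controls and 72.9 and 79.995 CPM in knockdown samples (log2 fold change 0.28 ± 0.11 SE, adjusted P = 0.287, edgeR's quasi-likelihood test). *Farsa* was at 34.1 and 30.7 CPM in controls and 31.5 and 30.3 CPM in knockdown samples (log2 fold change -0.07 ± 0.13 SE, not called). The groups were apart for *Tars* and *Farsb* and overlapped for *Farsa*, and the difference between the subunits was not tested. *Farsb* shares 248 exonic bases with *Sgpp2* on the opposite strand.

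**Figure D2:**
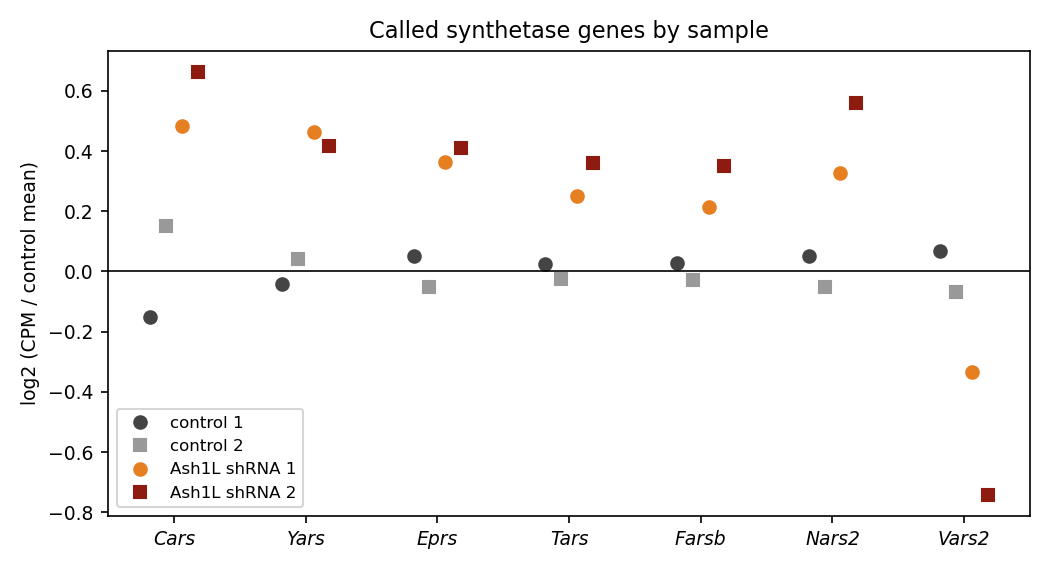
Log2 of the CPM over the mean log level of the 2 controls (vertical axis) for the 7 called synthetase genes in each of the 4 samples. In every gene the 2 *Ash1L* shRNA samples lie on the same side of both controls, above them for 6 genes and below them for *Vars2*.

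These calls rested on few samples. A fit that leaves out 1 sample has 1 library in that group, and its P values measure only the spread within the other group. DESeq2, edgeR's likelihood ratio test and a model that added replicate number as a blocking term each called 3 of 20 cytosolic genes higher, *Cars*, *Eprs* and *Yars*. Without control 1 only *Eprs* was called, without control 2 *Cars* and *Yars*, without *Ash1L* shRNA sample 2 *Cars*, *Eprs* and *Yars*, and without *Ash1L* shRNA sample 1 all 5. The share of all genes called higher ranged from 2.57% without control 2 to 14.4% without *Ash1L* shRNA sample 1.

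The remaining cytosolic genes were not called. Those with the highest CPM, a scale not corrected for length, were *Nars*, for asparaginyl-tRNA synthetase, *Aars*, for alanyl-tRNA synthetase, and *Sars*, for seryl-tRNA synthetase. *Nars* was at 208 and 244 CPM in controls and 241 and 232 CPM in knockdown samples (log2 fold change 0.07 ± 0.12 SE), and *Aars* at 202 and 224 CPM and 222 and 223 CPM (log2 fold change 0.06 ± 0.11 SE). In both genes, control 2 was at the level of the knockdown samples or above it. In GENCODE, *Aars* shares 1326 exonic bases with *Exosc6* on the same strand, an overlap that does not depend on the strand setting. Whether the gene models used for counting share these bases is not given in the sources used here. *Sars* was at 194 and 193 CPM in controls and 218 and 233 CPM in knockdown samples (log2 fold change 0.22 ± 0.11 SE, adjusted P = 0.349, edgeR's quasi-likelihood test), with no overlap. *Gars*, *Kars*, *Lars*, *Mars* and *Rars* likewise had both knockdown samples above both controls without being called, with log2 fold changes of 0.13 to 0.25.

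By place in the cell, the genes of the multi-synthetase complex (*Eprs*, *Iars*, *Lars*, *Mars*, *Qars*, *Rars*, *Kars* and *Dars*, a grouping made after their values were seen) included 1 called higher of 8, with a median log2 fold change of 0.15. The 12 other cytosolic genes included 4 called higher, with a median of 0.11, and 8.61% of all genes tested were called higher. Both knockdown samples were above both controls in 5 of the 8 complex genes, 6 of the 12 others and 26.5% of all genes. The difference between these groups was not tested.

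The mitochondrial genes showed no common direction. The log2 fold change was above 0 for 6 of 16 and below 0 for 10, with a median of -0.04. Both *Ash1L* shRNA samples were above both controls in 5 genes and below both in another 5, beside 26.5% and 26.8% of all genes, and the groups overlapped in 6. Leaving out *Lars2*, their summed mRNA was 350 and 342 CPM in controls and 350 and 347 CPM in knockdown samples, a ratio of group means of 1.01.

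*Nars2*, the mitochondrial asparaginyl-tRNA synthetase gene (ENSMUSG00000018995, chr7:96951505-97064758), was at 20.05 and 18.70 CPM in controls and 24.3 and 28.6 CPM in knockdown samples (log2 fold change 0.45 ± 0.15 SE, adjusted P = 0.260, edgeR's quasi-likelihood test). *Vars2*, for mitochondrial valyl-tRNA synthetase (ENSMUSG00000038838, chr17:35655634-35667592), was at 28.5 and 25.9 CPM in controls and 21.5 and 16.3 CPM in knockdown samples (log2 fold change -0.52 ± 0.18 SE, adjusted P = 0.262, edgeR's quasi-likelihood test). Neither gene's groups overlapped, and *Ash1L* shRNA sample 2 was the farther from the controls in both. *Nars2* and *Vars2* were called in 1 of the 4 fits that left out a sample, the one without *Ash1L* shRNA sample 1. *Vars2* shares 465 exonic bases with an antisense gene, and *Nars2* shares 284 with a processed transcript on the opposite strand.

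*Sars2*, the mitochondrial seryl-tRNA synthetase gene (chr7:28741992-28753871), had the most negative log2 fold change of the 36 genes but was not called. It read 8.78 and 10.6 CPM in controls and 7.74 and 5.65 CPM in knockdown samples (log2 fold change -0.53 ± 0.24 SE, adjusted P = 0.324, edgeR's quasi-likelihood test). *Iars2*, for mitochondrial isoleucyl-tRNA synthetase, was at 79.3 and 76.5 CPM in controls and 91.5 and 88.4 CPM in knockdown samples (log2 fold change 0.21 ± 0.11 SE, not called), with no overlap. Its exons share 2034 bases with *Rab3gap2* on the opposite strand. *Aars2* read 36.6 and 31.8 CPM in controls and 33.3 and 34.7 CPM in knockdown samples, so both knockdown samples lay between the controls. *Ears2*, at 6.87 and 6.96 CPM in controls and 6.90 and 5.55 CPM in knockdown samples, likewise overlapped. *Tars2*, *Rars2* and *Wars2* had both knockdown samples below both controls, with log2 fold changes of -0.23, -0.29 and -0.20, and *Hars2* and *Yars2* had both above both controls, with 0.25 and 0.22. None of these was called.

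*Lars2*, the mitochondrial leucyl-tRNA synthetase gene (ENSMUSG00000035202, chr9:123366927-123462666), had the widest spread between replicates of the 36 genes. It was at 152 and 750 CPM in controls and 5546 and 975 CPM in knockdown samples. The controls differed from each other by 2.31 on the log2 scale, a gap larger than that of 99.5% of genes tested, and the gap between the knockdown samples was likewise larger than that of 99.5% of genes. The log2 fold change of 2.85 ± 1.31 SE was not called (adjusted P = 0.370, edgeR's quasi-likelihood test), although both knockdown samples were above both controls. With 1 library left out it was 1.10 without *Ash1L* shRNA sample 1 and up to 4.42 without control 2. *Lars2* made up 30.2% and 68.7% of the summed mitochondrial synthetase CPM in controls and 94.1% and 73.7% in knockdown samples. With it the sum was 502, 1092, 5897 and 1322 CPM in the same order, and the ratio of group means was 4.53 in place of 1.01.

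*Rn45s*, the precursor of ribosomal RNA, followed the same order of samples, with 1301 and 3859 CPM in controls and 10444 and 5453 CPM in knockdown samples (log2 fold change 1.62 ± 0.61 SE, called higher, adjusted P = 0.292, edgeR's quasi-likelihood test). The libraries had been depleted of ribosomal RNA before sequencing, and *Rn45s* took 0.129% and 0.379% of counts in controls and 1.04% and 0.562% in knockdown samples. No other annotated gene shares exonic bases with *Lars2*. The part of ribosomal RNA in the *Lars2* values was not tested.

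**Figure D3:**
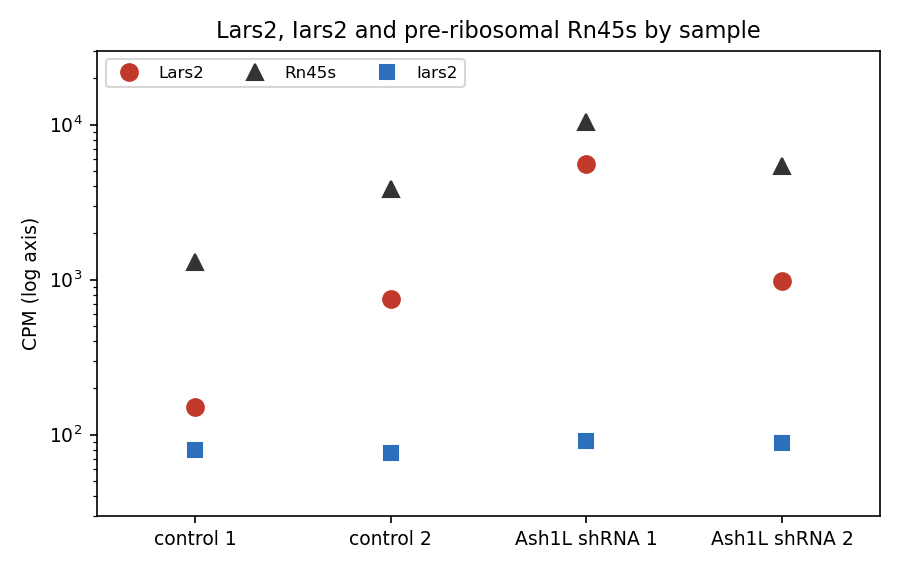
CPM on a log axis (vertical) of *Lars2*, *Iars2* and the pre-ribosomal *Rn45s* in each of the 4 samples. *Lars2* ranges from 152 to 5546 CPM and has the same order of samples as *Rn45s*, whereas *Iars2* stays between 76.5 and 91.5 CPM.

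For 13 amino acids a single gene of each set was present, so that cytosolic and mitochondrial enzymes could be set side by side. The log2 fold change of the cytosolic gene was above that of its mitochondrial counterpart in 9 pairs and below it in 4 (*Hars*, *Iars*, *Nars* and *Lars*), and the median difference was 0.24, or 0.25 over the 12 pairs without leucine. The leucine pair had the difference of largest size, -2.70, which rests on *Lars2*. Of the pairs with the cytosolic value above the mitochondrial one, serine had the largest difference, 0.75 on the log2 scale. Valine, threonine, cysteine and arginine followed, with differences of 0.55, 0.54, 0.53 and 0.51. For asparagine the order was also opposite, with a difference of -0.38, as *Nars2* was called higher and *Nars* was not. The ratio of summed cytosolic to summed mitochondrial CPM without *Lars2* was 5.26 and 5.76 in controls and 6.09 and 6.25 in knockdown samples. With *Lars2* it was 3.67 and 1.80 in controls and 0.361 and 1.64 in knockdown samples, the opposite direction. The differences between members of a pair were not tested.

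**Figure D4:**
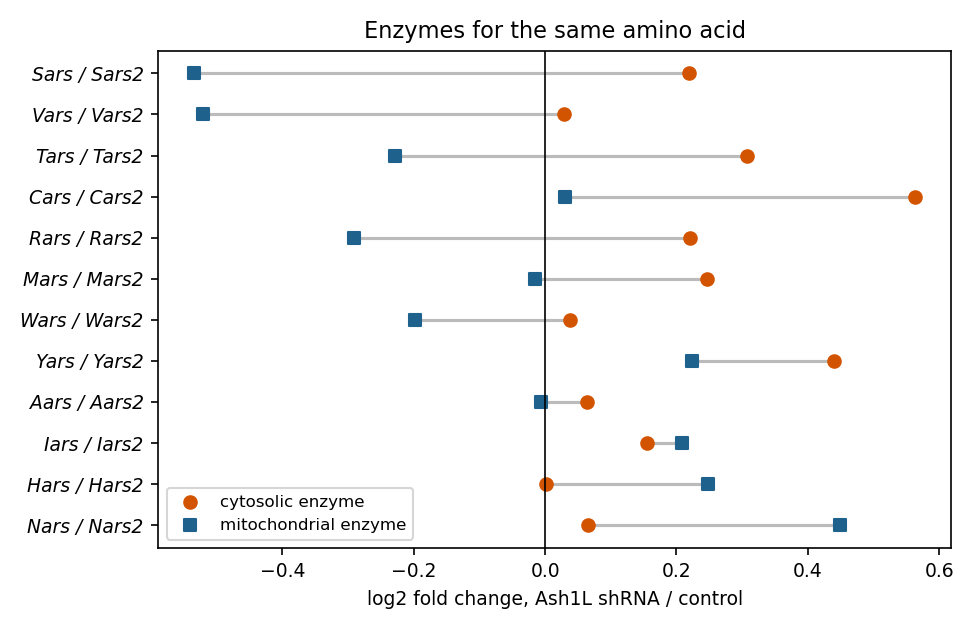
Log2 fold change (*Ash1L* shRNA over control, horizontal axis) of the cytosolic gene (orange circles) and the mitochondrial gene (blue squares) for each of 12 amino acids, the leucine pair being left out of the plot. The cytosolic point lies to the right of the mitochondrial point in 9 pairs.

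Per length, most mitochondrial enzymes were expressed below their cytosolic counterparts in control PFC. On the scale of CPM per kb of the longest coding transcript, averaged over the 4 samples, cytosolic genes spanned 9.72 for *Vars* to 84.3 for *Nars*, and mitochondrial genes other than *Lars2* spanned 1.67 for *Mars2* to 15.3 for *Iars2*. In controls, the cytosolic level per kb exceeded the mitochondrial one in 11 of the 13 pairs, the exceptions being isoleucine (ratio 0.931) and leucine (ratio 0.170). The ratio was 16.1 for asparagine and 1.02 for threonine.

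Genes that work with the synthetases gave no call, where 8.61% of all genes tested were called higher and 8.28% lower. Of 21 tested genes for complex scaffolds, tRNA delivery, proofreading and mitochondrial tRNA charging, 0 were called in either direction by edgeR's quasi-likelihood test, and 0 had an unadjusted P under 0.05. *Eef1a1*, the elongation factor that carries charged tRNA to the ribosome, was at 2688 and 2521 CPM in controls and 2611 and 2504 CPM in knockdown samples (log2 fold change -0.03). *Eef1a2*, its form in neurons and muscle, was at 765 and 740 CPM in controls and 668 and 619 CPM in knockdown samples (log2 fold change -0.23). *Tufm*, the mitochondrial counterpart, was at 56.4 and 51.8 CPM in controls and 62.6 and 69.1 CPM in knockdown samples (log2 fold change 0.28). The groups overlapped for *Eef1a1* and were apart, in opposite directions, for *Eef1a2* and *Tufm*. *Gfm1*, a mitochondrial elongation factor, had a log2 fold change of 0.16.

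Other genes of the ATF4 response, a list of ATF4, its partners and its known targets, included many that were called. Of 30 tested genes of amino acid uptake, amino acid synthesis, one-carbon metabolism and stress signalling, 17 were called higher (56.7%) and 2 lower, *Phgdh* and *Slc7a11*, with a median log2 fold change of 0.42. In 20 of the 30, both knockdown samples were above both controls. An adjusted P under 0.05 was reached by 0 of the 30 (edgeR's quasi-likelihood test, lowest adjusted P = 0.207). Over all genes tested, 8.61% were called higher, 8.28% lower, and 26.5% had both knockdown samples above both controls. *Mthfd2*, a mitochondrial enzyme of one-carbon metabolism, was at 7.65 and 8.04 CPM in controls and 20.9 and 29.1 CPM in knockdown samples (log2 fold change 1.67 ± 0.21 SE, adjusted P = 0.207, edgeR's quasi-likelihood test). *Aldh1l2*, of the same pathway, was at 9.07 and 10.6 CPM in controls and 24.6 and 20.6 CPM in knockdown samples (log2 fold change 1.19). Neither gene's groups overlapped. The stress factor gene *Atf3* was at 1.13 and 2.42 CPM in controls and 11.2 and 22.0 CPM in knockdown samples (log2 fold change 3.13), and *Trib3*, an inhibitor in the same response, at 0.567 and 0.570 CPM and 2.12 and 1.79 CPM (log2 fold change 1.77).

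Amino acid transporters were among the genes called higher, whereas *Slc7a11*, also a transporter of the list, was called lower (log2 fold change -0.75). *Slc1a4*, a carrier of neutral amino acids, was at 84.7 and 81.3 CPM in controls and 117 and 149 CPM in knockdown samples (log2 fold change 0.68), and *Slc38a2*, another such carrier, at 160 and 133 CPM and 171 and 270 CPM (log2 fold change 0.59). *Vldlr*, a lipoprotein receptor, was at 123 and 111 CPM in controls and 155 and 165 CPM in knockdown samples (log2 fold change 0.45). Outside the rule for named genes, *Atf4* itself was at 95.8 and 97.9 CPM in controls and 128 and 157 CPM in knockdown samples (log2 fold change 0.56), and *Asns*, for asparagine synthetase, at 110 and 122 CPM and 149 and 147 CPM (log2 fold change 0.35), both named after their values were seen. *Ddit3*, for the stress factor CHOP, whose exons share 68 bases with *Mars* on the opposite strand, was not called. The core letters TGATGNAAN were found in 10 of 27 promoter windows of this list (37.0%). Without control 1 or control 2 the count called higher was 9 and 10, and the link between this list and the synthetases was not tested.

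**Figure D5:**
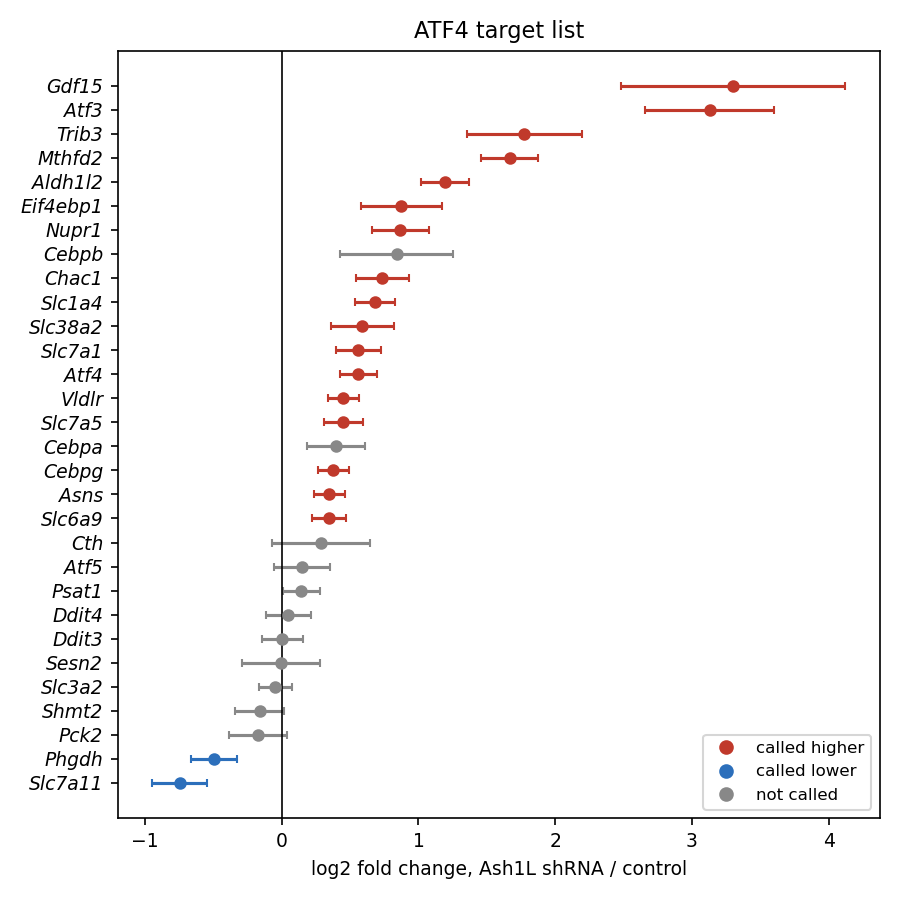
Log2 fold change (*Ash1L* shRNA over control, horizontal axis) of the 30 tested genes of the ATF4 target list with bars of 1 SE from edgeR, 2 samples per group. The 17 genes called higher are red, the 2 called lower are blue and the others are grey.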

How the data were processed

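Libraries were depleted of ribosomal RNA, prepared with a stranded kit and sequenced by the study. According to the methods and the submitters' processing notes, the authors aligned reads to mm10 with STAR and counted them per gene symbol with featureCounts, and the raw counts they deposited, 1 column per sample, were used here. The labels' protocol names Cutadapt and TopHat2 against RefSeq mRNAs instead. Genes were kept with edgeR's filterByExpr, scaled by TMM and tested with the quasi-likelihood test in edgeR 4.0.16 (R 4.3.3), followed by Benjamini-Hochberg adjustment over 16232 genes. A call required unadjusted P under 0.05 and 1.2-fold, after the study's criterion. The code was tested on simulated data.

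CPM values are TMM-scaled, SE is that of the fitted log2 fold change, and coordinates are from GENCODE on GRCm38 (mm10). Shared exonic bases are also from GENCODE, and the gene models used for counting may differ. Synthetases given with full values were, in each set, the called genes, the 3 of highest and 1 of lowest CPM, and the largest rise and fall. Of other lists, up to 5 called genes by P and the 2 of highest CPM were named. Members and lists were chosen with earlier results of these data known. DESeq2 1.42.0, other scalings and filters, a replicate block and each sample left out were tried as alternatives. The main fit did not pair samples by replicate number. A few items of these lists are not reported here.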

Additional observations from a re-analysis of the deposited data

How the results depend on the processing

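Under library size scaling the 5 cytosolic calls became 6, with *Mars* added, and 0 were called lower in any setting. The 5 calls became 3 under DESeq2, 3 under edgeR's likelihood ratio test, 3 with a replicate block and 0 at a 1.5-fold limit. The mitochondrial count called higher (1) became 2, 2 and, with the crossed pairing added after the data were seen, 2, against 0 at 1.5-fold and 0 to 1 with a sample left out. The count called lower (1) became 2 with the crossed pairing, 0 at 1.5-fold and 0 to 2 with a sample left out. ATF4 targets called higher (17) became 10 at 1.5-fold and 9 to 17 with a sample left out, and those called lower (2) became 1 and 0 to 3. For partner genes, 1 was called higher under upper-quartile scaling, 1 under library size scaling, 1 with at least 10 counts in every sample, 1 with the crossed pairing and 0 to 2 with a sample left out, as for those called lower (0 to 2).

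The median of the mitochondrial genes was 0.00677 under library size scaling and -0.0802 to 0.00597 with a sample left out, and the difference of the set medians (0.19) was 0.124 to 0.289. The ratio of summed mitochondrial CPM was 1.01 without *Lars2*. Signs reversed for uncalled genes near 0: *Aars* (-0.00078 to 0.138), *Nars* (-0.0347 to 0.182) and *Farsa* (-0.150 to 0.0160) with a sample left out, the reversal in each being without control 1, and *Aars2* under upper-quartile scaling (0.0113), library size scaling (0.0350) and the stricter filter (0.00241), and without control 1 (0.108) or *Ash1L* shRNA sample 1 (0.0211), from -0.112 without control 2. The causes of these shifts were not tested beyond their construction.

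The deviations of same-numbered samples from their group means had a correlation of -0.151 over the genes tested. With 2 samples per group, this value cannot show whether same-numbered samples were handled together. The replicate block lowered the calls over all genes from 1397 to 1052 higher and from 1344 to 1020 lower. With the crossed pairing they were 1541 and 1736. The lowest count of a member in any library was 97, for *Ears2* in control 1, so counting error was largest there. *Lars2* was called by DESeq2, by the likelihood ratio test and with the crossed pairing, where it was the 1 synthetase with an adjusted P under 0.05. Without *Ash1L* shRNA sample 1, the log2 fold changes of *Cars*, *Nars2* and *Vars2* were 0.64, 0.56 and -0.74. In that fit 1 library stood for the knockdown group, so no spread between knockdown samples was measured.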

Other observations

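*Wars*, for tryptophanyl-tRNA synthetase, is also known as an interferon-induced gene, and an interferon list was therefore read beside it. *Wars* was at 95.2 and 97.0 CPM in controls and 104 and 93.4 CPM in *Ash1L* shRNA samples, and the groups overlapped. Of 15 interferon genes, 3 were called higher (*Irf9*, *Ifit1* and *Usp18*, log2 fold changes 0.42, 0.68 and 0.75) and *Psmb8* was called lower (-0.95), with a median of 0.24. *Ifit3* had a log2 fold change of 0.42 with overlapping groups. Of all genes tested, 8.61% were called higher and 8.28% lower. *Wars* was named with its values after they were seen.

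*Tarsl2*, a second threonyl-tRNA synthetase of the cytosol, had a log2 fold change of 0.17, and *Dtd1*, which removes wrongly charged D-amino acids from tRNA, one of 0.19, neither of them called.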
